A study of Homo sapiens with 43 samples.

Results

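A set of 10 NF-kB target genes was followed in HEL cells, a human erythroleukemia line, that carried U2AF1 transgenes. The cytokine and chemokine genes were IL6, CXCL2, CXCL3, CXCL8 and IL1B. The others were the feedback inhibitors NFKBIA and TNFAIP3, the apoptosis inhibitor BIRC3, and the subunit genes NFKB1 and RELB. All 10 genes were named as a list and looked up by gene ID in the RNA count table. There 10 of 10 were present among 58347 annotated entries, and 10 of 10 passed the filter on low counts that left 21300 genes tested. The cells were stably transfected with U2AF1 S34F, U2AF1 Q157R or U2AF1 wild-type (WT), and were either given doxycycline (1 µg/ml, 48 hours) to induce the transgene or left uninduced. RNA-seq after depletion of ribosomal RNA covered 2 induced and 1 uninduced S34F libraries, 2 induced and 1 uninduced Q157R libraries, and 2 induced and 2 uninduced WT libraries. The labels name no change to the cells' own U2AF1 genes and do not say whether a line was 1 clone. The libraries are named biological replicates without a statement that cultures were separate, so p-values measure a spread between libraries that may be technical. U2AF1 crosslinking was read from 7 eCLIP libraries of induced WT cells, for U2AF1 and U2AF2, and from 17 freCLIP libraries of induced S34F, Q157R and WT cells, in which the U2AF1 membrane was divided into a light and a heavy fraction.

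NF-kB is a family of dimeric transcription factors held in the cytoplasm by IkB proteins. Signals from cytokine and Toll-like receptors activate the IKK kinases, IkB is degraded, and the released dimers bind kB sites in target promoters. Among the targets are inflammatory cytokines and the inhibitors that end the response, such as NFKBIA, the gene of IkBα, and TNFAIP3, the gene of the ubiquitin-editing protein A20. U2AF1 and U2AF2 are the subunits of U2AF, which binds RNA at the end of introns, and S34F and Q157R are U2AF1 mutations found in myeloid malignancies.

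Promoter windows are shown as a description of these genes. The members were chosen as NF-kB targets, so kB-like letters are not independent of that choice, and their share among the members is no test. A match is not a bound site. Promoters of 9 of the 10 genes were matched in RefSeq (GRCh38.p14), each with 250 bases before and 50 after a start site. The letters GGNNTTTCC, chosen after these promoters had been read and searched on both strands, were found in 8 of these 9 genes; in IL1B neither they nor the NF-kB consensus was found. Of all 35116 promoters of 300 bases, 6.26% held GGNNTTTCC, and 5.91% held the consensus, which can overlap it. One match in each promoter is given 5′ to 3′ on the gene's strand with 10 bases on either side, capitals marking the letters that matched; a match on the opposite strand appears as the reverse complement.
IL6: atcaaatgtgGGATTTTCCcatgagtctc
CXCL8: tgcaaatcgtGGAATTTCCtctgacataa
CXCL2: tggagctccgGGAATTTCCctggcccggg
CXCL3: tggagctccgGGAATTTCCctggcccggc
CXCL1: tggaactccgGGAATTTCCctggcccggg
NFKBIA: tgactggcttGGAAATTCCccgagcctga
TNFAIP3: aaagtcccgtGGAAATCCCcgggcctaca
BIRC3: tttgggtcatGGAAATCCCcgagtgggtt
NFKB1: gacgtcagtgGGAATTTCCagccaggaag

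The windows lie at chr7:22727118-22727146 (IL6, plus strand), chr4:73740468-73740496 (CXCL8, plus), chr4:74099254-74099282 (CXCL2, minus), chr4:74038749-74038777 (CXCL3, minus), chr4:73869305-73869333 (CXCL1, plus), chr14:35404812-35404840 (NFKBIA, minus), chr6:137867194-137867222 (TNFAIP3, plus), chr11:102317275-102317303 (BIRC3, plus) and chr4:102501301-102501329 (NFKB1, plus). In GENCODE release 29, the windows of CXCL2, CXCL3, TNFAIP3 and NFKB1 overlap an annotated exon of the gene, that of IL6 lies in an intron of its longer gene model, and those of CXCL8, CXCL1, NFKBIA and BIRC3 lie upstream of the gene. IL6, the 4 chemokine genes shown and NFKB1 carry the letters on the gene's own strand. NFKBIA, TNFAIP3 and BIRC3 carry them on the opposite strand. CXCL1, which is not one of the 10 genes, is shown because its window differs from that of its paralog CXCL2 by 1 base. The difference is G5A, counted from 1 at the window's 5′ end with the CXCL2 base first. CXCL1 RNA was nearly undetected in these cells. The genes themselves lie at chr7:22725884-22732002 (IL6), chr2:112829751-112836903 (IL1B), chr14:35401511-35404749 (NFKBIA), chr6:137867188-137883312 (TNFAIP3), chr11:102317450-102339403 (BIRC3), chr4:102501329-102617302 (NFKB1) and chr19:45001430-45038198 (RELB). The gene model of IL6 overlaps AC073072.1 and STEAP1B, and that of TNFAIP3 overlaps AL357060.1; whether counting used strand is not stated, so reads of these genes may be shared. CXCL8, CXCL1, CXCL3 and CXCL2 lie in this order on chromosome 4, with 125676, 165346 and 58227 bases between them. Other genes in these stretches were not looked up. CXCL1, CXCL2 and CXCL3 are close paralogs, and how reads shared between them were counted is not stated, so their counts are uncertain to that extent.

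RNA-seq libraries held 22392303 to 40370092 gene counts. Reads that fell in no annotated gene feature were 33.6 ± 0.141% in induced S34F cells, 25.1 ± 2.65% in induced Q157R cells and 22.7 ± 0.0283% in induced WT cells (SD, n = 2 each), and 19.0% to 20.6% in uninduced cells. U2AF1 itself lay between 11.0 and 22.1 CPM, counts scaled to library size with TMM factors, over the 10 libraries. In S34F cells it had 17.996 and 19.4 CPM induced, against 21.2 CPM uninduced. In Q157R cells it had 21.5 and 15.1 CPM induced, against 22.1 CPM uninduced. In WT cells it had 19.1 and 11.0 CPM induced, against 13.4 and 12.6 CPM uninduced. The counted level of the U2AF1 entry was thus not higher after induction in either mutant line, and WT libraries overlapped. How reads that match more than 1 place were counted is not stated, so total U2AF1 RNA was not measured. Endogenous and introduced U2AF1 are not separated by gene counts, so transgene expression was not tested. Of the markers of the line, 12 of 14 erythroid and 8 of 10 megakaryocyte genes averaged at least 1 CPM (GP1BB was at 0). Of markers of other cell types, 3 of 11 monocyte and granulocyte genes and 5 of 10 lymphoid genes did (MS4A1 was at 0). So did 4 of 10 stromal, endothelial and epithelial genes.

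IL1B was the most abundant of the 10 transcripts per length in all 6 groups, with a mean over the 10 libraries of 38.5 CPM per kilobase of exon (range 15.7 to 55.2). CXCL2 came next at 20.8 CPM per kilobase, ahead of NFKB1 at 10.9, CXCL3 at 8.22, NFKBIA at 7.36, TNFAIP3 at 5.10, CXCL8 at 4.04, RELB at 3.51 and IL6 at 2.81. BIRC3, an inhibitor of apoptosis that also ubiquitinates NF-kB signalling proteins, was lowest at 0.329 CPM per kilobase, and its highest library (0.681) lay below the lowest library of every other gene. All other neighbours in this order overlapped over the 10 libraries. CXCL1 had 1 count over all 10 libraries, at most 0.0429 CPM, where 3 counts of a library correspond to 0.0747 to 0.129 CPM, so it was not detectable at this depth. In the same libraries its paralogs CXCL2 and CXCL3 had 9433 and 5489 counts. Of 17 other NF-kB target cytokines and chemokines looked up, 12 stayed under 1 CPM in every library, CXCL1, CXCL10, CCL2, CCL20 and CSF2 among them.

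**Figure D1:**
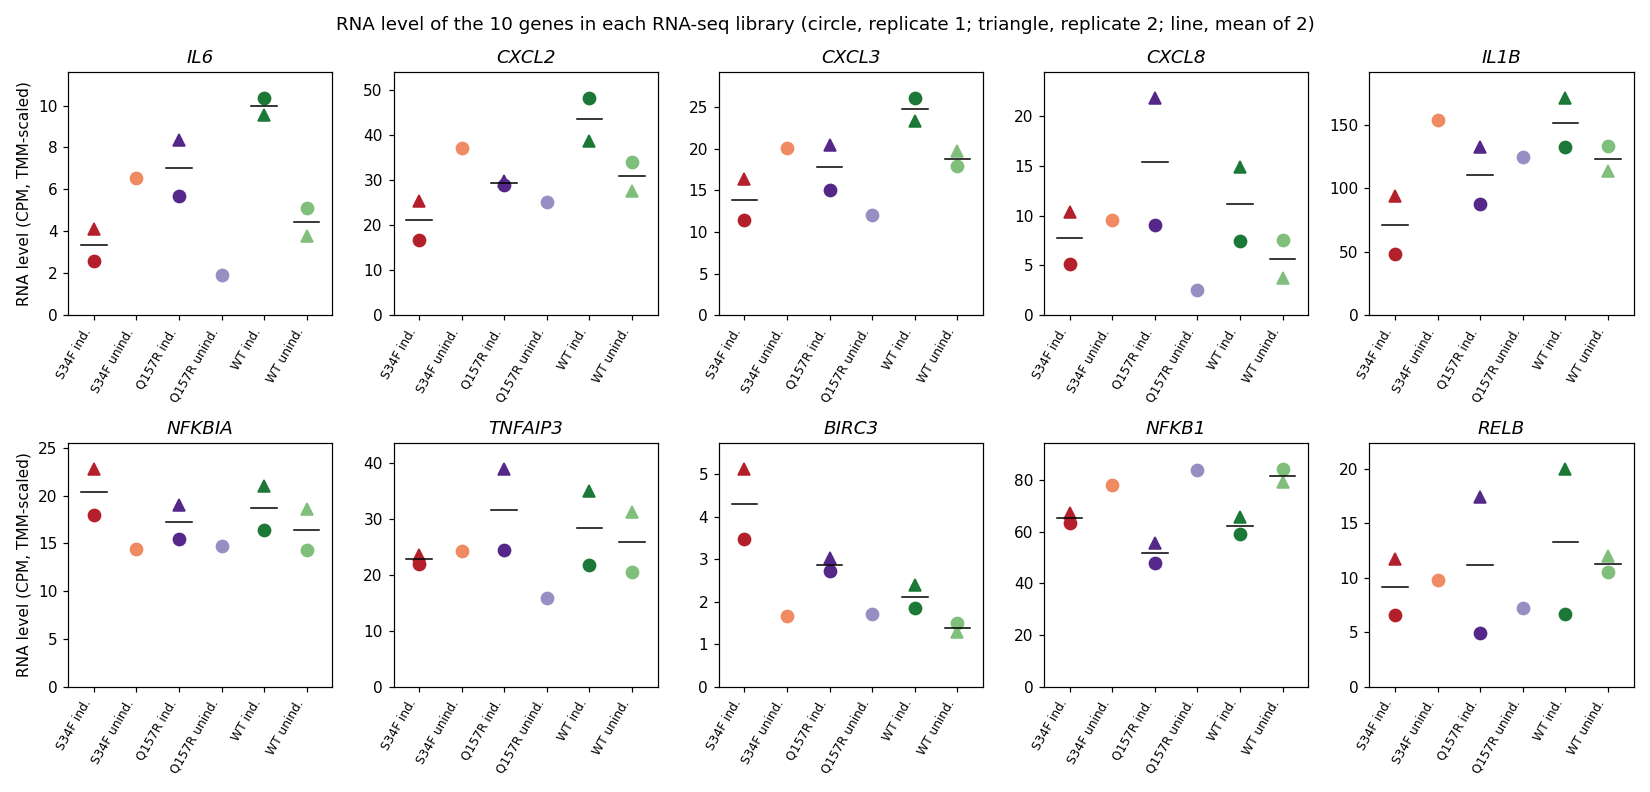
RNA level (TMM-scaled CPM, linear axis from 0) of each of the 10 genes in every RNA-seq library, with a circle for replicate 1, a triangle for replicate 2 and a line at the mean of 2 libraries. Induced S34F libraries had 2.60 and 4.10 CPM of IL6, below the induced WT libraries at 10.4 and 9.57 CPM, and BIRC3 was the gene with the reverse order.

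In induced cells, 4 of the 10 genes (IL6, CXCL2, CXCL3 and IL1B) were lower in S34F than in WT libraries without overlap (27.3% of all genes). BIRC3 alone was higher without overlap (28.9% of all genes). The differences of these 5 genes lay between 1.78-fold and 2.96-fold. In either direction, 5 of 10 genes did not overlap, against 56.2% of all genes. This comparison sets the induced S34F line against the induced WT line. Effects of the mutation and other differences between the lines cannot be told apart in it. In edgeR's test without a replicate term 0 of 10 genes were called (1.67% of all genes), and with the replicate number as a term 5 of 10 were (22.4% of all genes). Also without a replicate term, DESeq2 called 4 of 10 (9.78% of all genes it tested). EdgeR without the filter on low counts called 3 of 10 (6.23%). The count of calls thus depended on the fit, and the cause was not tested.

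IL6 encodes interleukin 6, an inducer of the acute-phase response. It had 2.60 and 4.10 CPM in the induced S34F libraries, against 10.4 and 9.57 CPM in the induced WT libraries. Both S34F libraries lay below both WT libraries, and IL6 was 2.96-fold lower (log2 fold change -1.57 ± 0.34, SE; edgeR adjusted p = 0.0591). CXCL2, which encodes a neutrophil-attracting chemokine, had 16.8 and 25.5 CPM in S34F and 48.3 and 38.8 CPM in WT libraries. The groups did not overlap, and the log2 fold change was -1.04 ± 0.24 (edgeR adjusted p = 0.0676). CXCL3, another ligand of the receptor CXCR2, had 11.4 and 16.3 CPM in S34F and 26.1 and 23.3 CPM in WT libraries, again without overlap (-0.83 ± 0.25; edgeR adjusted p = 0.105). IL1B, the gene of interleukin 1β, a cytokine processed by the inflammasome, had 48.6 and 93.6 CPM in S34F and 132 and 171 CPM in WT libraries. Its S34F libraries were both lower, with a log2 fold change of -1.09 ± 0.33 (edgeR adjusted p = 0.109). BIRC3 had 3.47 and 5.12 CPM in S34F and 1.84 and 2.39 CPM in WT libraries. It was the one gene of the 10 whose S34F libraries were both higher (1.02 ± 0.33; edgeR adjusted p = 0.121).

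The other cytokine, CXCL8, which encodes the neutrophil chemokine interleukin 8, had 5.12 and 10.3 CPM in induced S34F libraries and 7.45 and 14.9 CPM in induced WT libraries. These ranges overlapped, as did those of NFKBIA (17.96 and 22.8 CPM in S34F, 16.4 and 21.0 CPM in WT), TNFAIP3 (22.0 and 23.5 CPM in S34F, 21.8 and 35.0 CPM in WT), NFKB1 and RELB. NFKB1 encodes the p105 precursor of the p50 subunit; it had 63.4 and 67.3 CPM in S34F and 59.1 and 65.7 CPM in WT libraries. RELB, the subunit of the alternative pathway, had 6.54 and 11.7 CPM in S34F and 6.67 and 19.9 CPM in WT libraries. Their log2 fold changes lay between -0.54 (RELB) and 0.12 (NFKBIA), and edgeR adjusted p-values between 0.581 and 0.831. Between libraries of the same number, S34F over WT was 0.687 and 0.696 for CXCL8, 1.10 and 1.08 for NFKBIA and 1.07 and 1.02 for NFKB1, 1 direction in both pairs for each, while TNFAIP3 was 1.01 and 0.671 and RELB 0.979 and 0.588. With 1 library left out, which breaks a pair, the sign turned for all 5: without induced WT replicate 2, the values of CXCL8, TNFAIP3 and RELB were 0.03, 0.04 and 0.43, and without induced WT replicate 1 those of NFKBIA and NFKB1 were -0.05 and -0.01; NFKBIA was also at -0.05 without induced S34F replicate 2.

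In edgeR's quasi-likelihood test (adjusted p under 0.05) 0 of the 10 genes were called between induced S34F and WT cells, where 356 of all 21300 genes (1.67%) were; 5 of 10 had an unadjusted p under 0.05, against 23.3% of all genes. The median log2 fold change was -0.53 over the 10 genes and 0.000434 over all genes tested; over the 13602 protein-coding genes tested it was -0.16. Without induced WT replicate 2 the median of the 10 genes was 0.04, and without induced S34F replicate 2 it was -1.07. DESeq2 called 4 of 10 genes (IL6, CXCL2, CXCL3 and IL1B, lower in S34F), against 9.78% of all genes it tested. With the replicate number as a block edgeR called 5 of 10, against 22.4% of all genes: IL6 (-1.58 ± 0.29, adjusted p = 0.00372), CXCL2 (-1.04 ± 0.21, adjusted p = 0.00674), CXCL3 (-0.86 ± 0.20, adjusted p = 0.0103) and IL1B (-1.13 ± 0.24, adjusted p = 0.0105) were lower, and BIRC3 (1.02 ± 0.29, adjusted p = 0.026) was higher. Groups without overlap were common among all genes (27.3% lower and 28.9% higher in S34F), against 4 of 10 and 1 of 10 here. The higher share of reads outside gene features in induced S34F libraries moved with these differences, and its part in them was not tested. In bulk RNA, fewer expressing cells and less RNA per cell cannot be told apart.

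**Figure D2:**
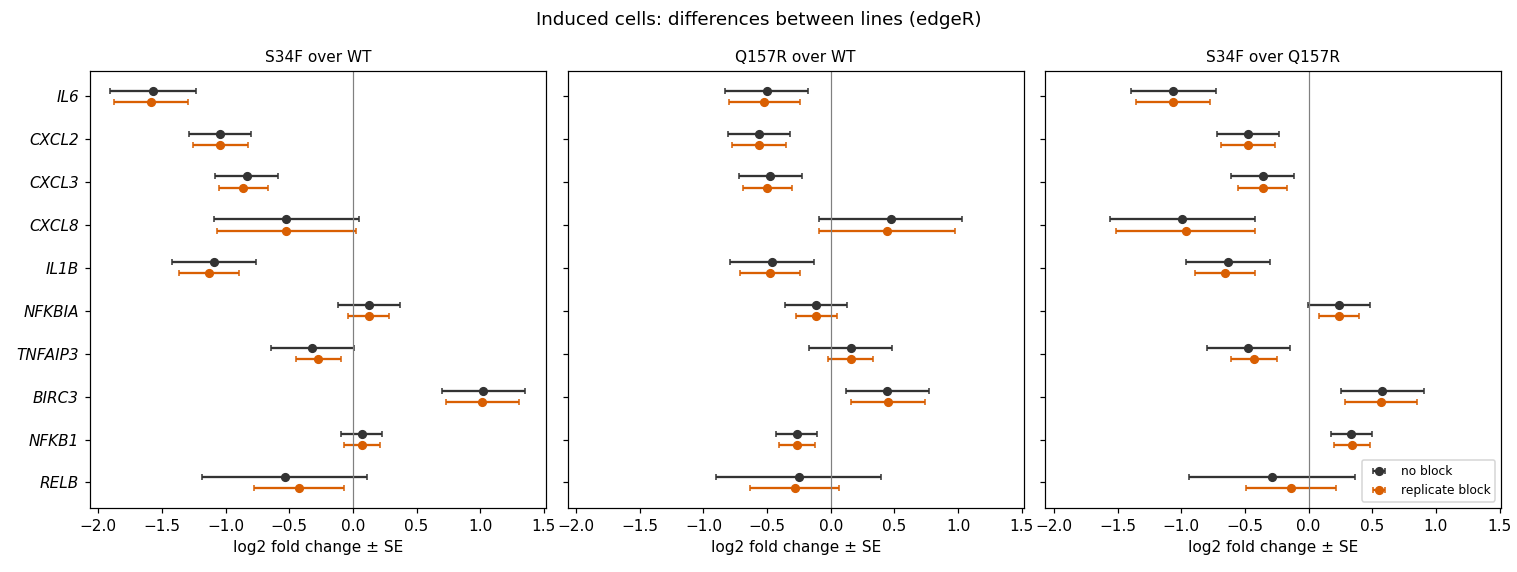
Log2 fold change ± SE (edgeR) of the 10 genes in induced cells for S34F over WT, Q157R over WT and S34F over Q157R, without (grey) and with (orange) the replicate block. The SE is smaller with the block for all 10 genes. IL6, CXCL2, CXCL3, IL1B and RELB lie left of 0 in all 3 panels, and BIRC3 lies right of 0.

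Markers of blood lineages differed unevenly between induced S34F and WT cells. All 9 megakaryocyte and platelet markers tested were below 0 in S34F over WT, with a median log2 fold change of -0.81, and their summed level was 1235 to 1711 CPM in the induced S34F libraries, against 1947 to 3028 CPM in induced WT cells. Of these 9, 1 was called by edgeR: ITGB3, the integrin β3 of platelets (-0.95 ± 0.17, adjusted p = 0.0448). The monocyte and granulocyte markers summed to 81.3 to 95.04 CPM in S34F and 47.3 to 62.3 CPM in WT cells. Of the 5 tested, 3 were above 0 and 2 below, and 1 was called, ITGAM, the integrin αM of myeloid cells (1.49 ± 0.27, edgeR adjusted p = 0.0448), while the granule genes MPO and ELANE stayed under 1 CPM on average. Of 7 lymphoid markers tested 5 were below 0, and 1 was called higher, KLRD1 (4.07 ± 0.55, edgeR adjusted p = 0.0432). Erythroid markers were evenly divided, 6 above and 6 below 0, and their sums overlapped (1586 to 1911 CPM in S34F, 1741 to 2182 CPM in WT cells). Of 6 stromal, endothelial and epithelial markers tested 4 were below 0, and their sums were 511.4 to 622 CPM in S34F and 493 to 519.7 CPM in WT cells. The part of these shifts in the cytokine differences was not tested.

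For IL6, CXCL2, CXCL3, IL1B, BIRC3 and RELB the mean of the induced Q157R libraries lay between those of S34F and WT. The libraries of RELB overlapped between all these groups. This comparison shares the WT libraries with that of S34F and WT cells, so the values are given side by side and are no separate evidence. IL6 had 5.69 and 8.37 CPM in the induced Q157R libraries, below the 10.4 and 9.57 CPM of induced WT (log2 fold change -0.50 ± 0.33). CXCL2 had 29.03 and 29.9 CPM in Q157R, below 48.3 and 38.8 CPM in WT (-0.56 ± 0.24), and CXCL3 had 15.1 and 20.5 CPM, below 26.1 and 23.3 CPM in WT (-0.47 ± 0.25). IL1B had 87.9 and 133 CPM in Q157R and 132 and 171 CPM in WT libraries; the upper Q157R value just passed the lower WT value. CXCL8 stood at 9.03 and 21.8 CPM in Q157R and 7.45 and 14.9 CPM in WT libraries, and TNFAIP3 at 24.4 and 38.9 CPM in Q157R and 21.8 and 35.0 CPM in WT libraries, both with overlap. NFKB1 was lower in both Q157R libraries (48.0 and 55.6 CPM, against 59.1 and 65.7 CPM in WT), and BIRC3 higher (2.71 and 3.04 CPM, against 1.84 and 2.39 CPM in WT). Groups did not overlap for 4 of 10 genes on the lower side (IL6, CXCL2, CXCL3 and NFKB1; 13.4% of all genes) and for 1 of 10 on the higher side (BIRC3; 13% of all genes). No gene was called: edgeR gave 0 of 10 and 0 of 21300 genes (0%), and 1 of 10 (CXCL2) had an unadjusted p under 0.05, against 3.36% of all genes; DESeq2 called 0 of 10 (0.00776% of all genes), and so did the replicate block (0.0188% of all genes).

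S34F and Q157R cells were also compared directly in the induced state. IL6 was 2.09-fold lower in S34F than in Q157R (2.60 and 4.10 CPM in S34F, 5.69 and 8.37 CPM in Q157R). Without a block its log2 fold change was -1.06 ± 0.34 (edgeR adjusted p = 0.136), and with the replicate block -1.06 ± 0.29 (edgeR adjusted p = 0.0251). CXCL8 had 5.12 and 10.3 CPM in S34F and 9.03 and 21.8 CPM in Q157R, which overlapped (-0.99 ± 0.57). CXCL2 and TNFAIP3 were lower in S34F without overlap, with log2 fold changes of -0.48 each, and BIRC3 and NFKB1 were higher without overlap, with 0.58 and 0.34. In edgeR 0 of 10 genes were called without the block (119 of all genes, 0.559%; 1 of 10 with an unadjusted p under 0.05, against 21.5% of all genes), DESeq2 called 0 (7.38% of all genes), and 1 of 10 was called with the block (20% of all genes). Non-overlap was found for 3 of 10 genes on the lower side (25.5% of all genes) and 2 of 10 on the higher side (27.8%).

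IL6, CXCL2, CXCL3 and BIRC3 were higher in both induced WT libraries than in the uninduced ones, but no gene passed the test. This comparison asks what doxycycline and WT U2AF1 expression change together, since no line without a transgene was treated. IL6 had 10.4 and 9.57 CPM in induced WT cells, against 5.10 and 3.79 CPM in uninduced WT cells (2.24-fold; log2 fold change 1.17 ± 0.33, edgeR adjusted p = 0.717). CXCL2 had 48.3 and 38.8 CPM in induced and 34.2 and 27.6 CPM in uninduced cells, and CXCL3 had 26.1 and 23.3 CPM in induced and 17.96 and 19.7 CPM in uninduced cells. BIRC3 was higher as well (1.84 and 2.39 CPM induced, 1.5003 and 1.27 CPM uninduced), while NFKB1 was lower (59.1 and 65.7 CPM induced, 84.2 and 79.3 CPM uninduced). The other 5 genes overlapped between induced and uninduced WT cells. Groups without overlap made up 4 of 10 genes on the higher side (17.8% of all genes) and 1 of 10 on the lower side (16.3%). Called genes were 0 of 10 and 0 of 21300 (0%) in edgeR, with 2 of 10 (IL6 and NFKB1) against 6.4% of all genes at an unadjusted p under 0.05; DESeq2 called 0 of 10 (0.0987% of all genes), and so did the replicate block (0.418% of all genes).

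In the S34F line, IL6, CXCL2, CXCL3, IL1B, TNFAIP3 and NFKB1 were lower in both induced libraries than in the uninduced one. No gene passed the test without the block. The uninduced S34F group is 1 library, and its spread was taken from the other groups. IL6 had 2.60 and 4.10 CPM in induced S34F cells, against 6.52 CPM in the uninduced library (log2 fold change -0.96 ± 0.39). CXCL2 had 16.8 and 25.5 CPM in induced cells, against 37.1 CPM uninduced (-0.81 ± 0.29), and IL1B 48.6 and 93.6 CPM, against 154 CPM uninduced (-1.11 ± 0.39; edgeR adjusted p = 0.134). BIRC3 was higher, at 3.47 and 5.12 CPM, against 1.66 CPM uninduced (1.37 ± 0.42; edgeR adjusted p = 0.107), and NFKBIA had 17.96 and 22.8 CPM, against 14.4 CPM uninduced. Called genes were 0 of 10 in edgeR, against 418 of all genes (1.96%), and 4 of 10 had an unadjusted p under 0.05, against 25.2%; DESeq2 called 0 (11.2% of all genes). With the replicate block IL1B (-1.37 ± 0.29, edgeR adjusted p = 0.0137) and BIRC3 (1.23 ± 0.38, edgeR adjusted p = 0.0441) were called, 2 of 10 against 19.2% of all genes. The induced libraries lay outside the uninduced library on the lower side for 6 of 10 genes (40.4% of all genes) and on the higher side for 2 of 10 (43.1%).

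In the Q157R line, IL6, CXCL2, CXCL3, CXCL8, NFKBIA, TNFAIP3 and BIRC3 were higher in both induced libraries than in the uninduced one. No gene passed edgeR's test. IL6 had 5.69 and 8.37 CPM in induced Q157R cells, against 1.93 CPM in the single uninduced library (3.64-fold; log2 fold change 1.86 ± 0.45, edgeR adjusted p = 0.552). CXCL8 had 9.03 and 21.8 CPM, against 2.55 CPM uninduced (2.59 ± 0.81; edgeR adjusted p = 0.552); without induced Q157R replicate 2 the log2 value was 1.83. TNFAIP3 had 24.4 and 38.9 CPM, against 15.8 CPM uninduced, and NFKB1 had 48.0 and 55.6 CPM, against 83.9 CPM uninduced. The induced libraries were both higher for 7 of 10 genes (36.3% of all genes) and both lower for 1 of 10 (33.6%). In edgeR 0 of 10 and 0 of 21300 genes (0%) were called, and 4 of 10 had an unadjusted p under 0.05, against 8.86% of all genes. DESeq2 called 2 of 10 (IL6 and CXCL8, higher after induction; 0.378% of all genes it tested), and edgeR with the replicate block called 0 of 10 (56 of all genes, 0.263%).

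**Figure D3:**
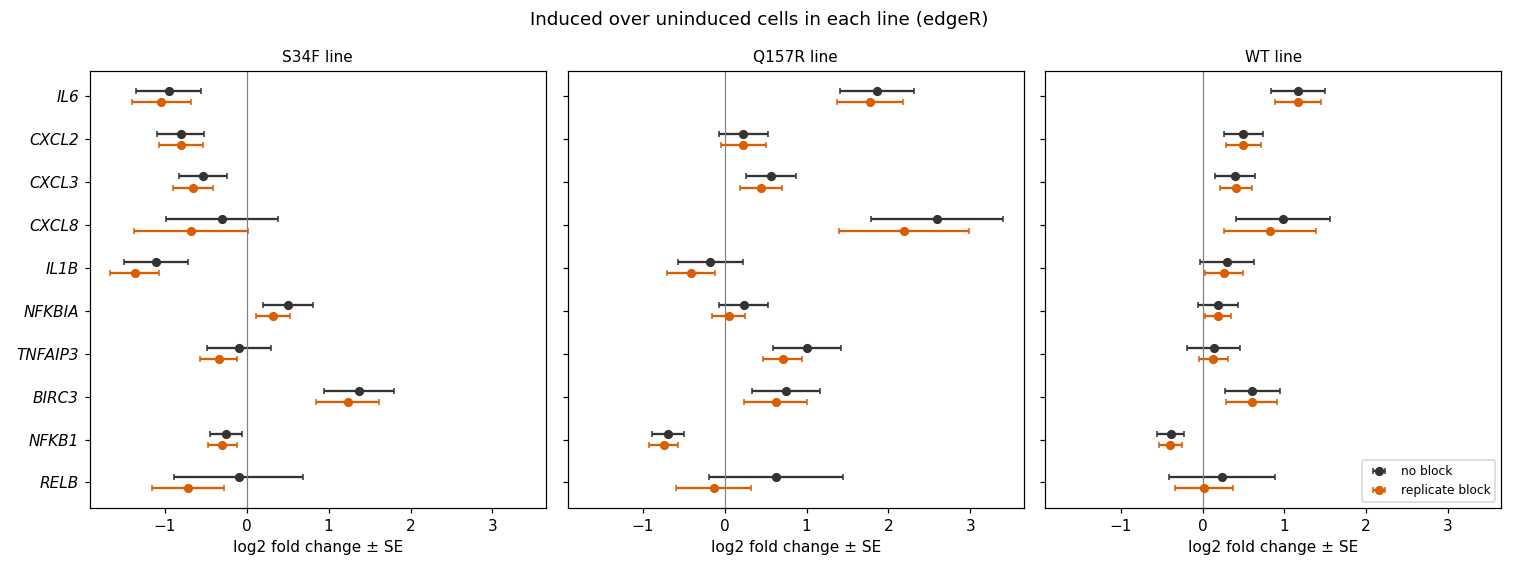
Log2 fold change ± SE (edgeR) of induced over uninduced cells for the 10 genes in the S34F, Q157R and WT lines, without (grey) and with (orange) the replicate block. IL6 lies left of 0 in the S34F line (-0.96) and right of 0 in the Q157R (1.86) and WT lines (1.17), while NFKB1 lies left of 0 in all 3.

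The difference between the lines' responses was tested as an interaction. The IL6 response was 2.12 ± 0.51 lower on the log2 scale in S34F than in WT: the fitted difference was -2.12, with an unadjusted p of 0.00318 and an adjusted p of 0.589 (edgeR quasi-likelihood test). CXCL2 (-1.31 ± 0.38), CXCL3 (-0.93 ± 0.38) and IL1B (-1.41 ± 0.51) had the next lowest unadjusted p-values. Called genes were 0 of 10 and 0 of 21300 (0%) in edgeR, with 4 of 10 against 8.19% of all genes at an unadjusted p under 0.05; DESeq2 called 0 of 10 (0.124% of all genes). With the replicate block 150 of all genes (0.704%) were called and 0 of 10 here, IL6 having an edgeR adjusted p of 0.0535. The Q157R response minus the WT response gave 0 of 10 and 0 of 21300 genes (0%) in edgeR and 0 of 10 with an unadjusted p under 0.05, against 1.23% of all genes; DESeq2 called 0 of 10 (0% of all genes), and so did the block (0.00469% of all genes). NFKBIA, the inhibitor induced by NF-kB itself, had differences of 0.32 ± 0.39 for S34F and 0.05 ± 0.39 for Q157R.

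Before induction the lines were compared with 1 library each of S34F and Q157R against 2 of WT. The S34F library was above both WT libraries for 6 of 10 genes (31.2% of all genes) and below both for 2 of 10 (29.2%); IL6 had 6.52 CPM in S34F, against 5.10 and 3.79 CPM in WT. The Q157R library was below both WT libraries for 6 of 10 genes (31.4% of all genes) and above both for BIRC3 alone (32.2%). IL6 had 1.93 CPM in uninduced Q157R, against 5.10 and 3.79 CPM in uninduced WT (log2 fold change -1.20 ± 0.44), and CXCL8 had 2.55 CPM, against 7.54 and 3.72 CPM. In edgeR 0 of 10 and 0 of 21300 genes (0%) were called in either comparison, with 0 of 10 (S34F; 0.859% of all genes) and 1 of 10 (IL6 in Q157R; 1.1% of all genes) at an unadjusted p under 0.05; DESeq2 called 0 of 10, and so did the block (0% of all genes in both).

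The genes differed in how far libraries of one group spread, which sets how large a difference the tests could see. RELB was higher in replicate 2 than in replicate 1 of every induced group, 1.79-fold in S34F, 3.54-fold in Q157R and 2.99-fold in WT, and so was CXCL8 (2.02-fold, 2.41-fold and 2.00-fold). In uninduced WT cells the replicate 2 to replicate 1 ratio was 1.14 for RELB and 0.494 for CXCL8. Replicate 2 was higher in all 3 induced groups for 7 of the 10 genes, against 27.6% of all genes tested, and in 10 of 10 genes within the S34F and within the Q157R group. The 3 exceptions were IL6, CXCL2 and CXCL3, which were lower in replicate 2 of induced WT. Over all 10 libraries the SD of log2 CPM was 0.90 for CXCL8 (percentile 92.3 of all genes tested), 0.79 for IL6 (86.7) and 0.24 for NFKBIA (17.1). RELB stood at percentile 75.6, BIRC3 at 72.7, IL1B at 62.5, CXCL2 at 48, CXCL3 and TNFAIP3 at 43.3 and NFKB1 at 23.4. This SD holds differences between groups as well as spread within them. The genes whose log2 CPM pattern over the 10 libraries lay closest, by the root mean square difference after centring among 11292 genes, were DACT3 (0.34), HPSE (0.37) and VWF (0.39) for IL6, RCN3 (0.34), GIPR (0.35) and NR4A1 (0.36) for CXCL8, and GMPR2 (0.07), ZNF717 (0.09) and NCOA4 (0.09) for NFKBIA.

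**Figure D4:**
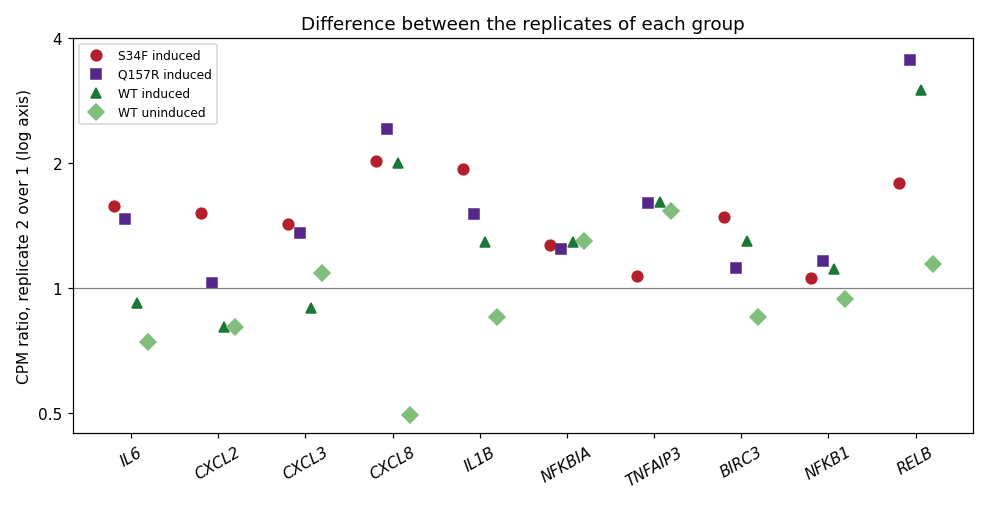
Ratio of replicate 2 to replicate 1 CPM (log axis) for the 10 genes in induced S34F, Q157R and WT cells and uninduced WT cells. RELB and CXCL8 lie between 1.79 and 3.54 in the 3 induced groups, and at 1.14 and 0.494 in uninduced WT.

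Upstream and beside the 10 genes, 106 further genes of the pathway were looked up in 9 lists, and 84 were tested. Between induced S34F and WT cells, 1 rose and 1 fell; the 2 calls among 84 stand beside 1.67% over all genes. Their median log2 fold change was -0.15, close to the -0.16 over all protein-coding genes tested. TRAF3, an adaptor that restrains the alternative pathway, had 23.8 ± 2.97 CPM in S34F against 48.3 ± 1.15 CPM in WT (mean ± SD of 2 induced libraries each; log2 fold change -1.02 ± 0.20, edgeR adjusted p = 0.0487). TLR1, a Toll-like receptor for lipopeptides, had 11.5 ± 2.18 CPM in S34F against 3.70 ± 0.126 CPM in WT cells (1.63 ± 0.30; edgeR adjusted p = 0.0456). Of the lists with no call, the most abundant genes lay mostly below 0. Above 0 were IL6ST, the signalling receptor subunit of IL6 (0.31 ± 0.23), the kinase MAP3K7 (0.15 ± 0.20) and its partner TAB2 (0.13 ± 0.21). NFKB1, one of the 10 genes, was above 0 as well (0.07 ± 0.16). TNIP1 and NFKBIZ lay just below 0 (-0.01 and -0.02). Further below were RELA, the main activating subunit (-0.34 ± 0.15), and BCL2L1, an apoptosis inhibitor (-1.36 ± 0.26, edgeR adjusted p = 0.0503). LIF, a cytokine of the IL6 family, was at -1.32 ± 0.34 (edgeR adjusted p = 0.0817). IL1RAP, a subunit of the interleukin 1 receptor, was at -1.67 ± 0.59. KHSRP (-0.55 ± 0.15), HNRNPD (-0.22 ± 0.39), CSF1 (-0.18 ± 0.26) and CD44 (-0.14 ± 0.19) were also below 0. With the replicate block 5 of the 84 were higher and 14 lower in S34F, against 22.4% of all genes called. After induction of S34F, 1 of the 84 fell and 0 rose, against 1.96% of all genes called. With the block 2 were higher and 9 lower, against 19.2% of all genes called. The one that fell without the block was ELAVL1, whose protein HuR binds AU-rich elements of cytokine mRNAs. ELAVL1 had 103 ± 0.990 CPM in induced S34F libraries, against 228 CPM in the uninduced one (-1.14 ± 0.19, edgeR adjusted p = 0.0381). In the other 8 RNA comparisons no gene of the 84 was called by edgeR without the block. With it, 4 were higher and 12 lower in S34F than in Q157R, against 20% of all genes called. Between 0 and 3 were called in each of the other 7, against 0% to 0.704% of all genes.

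Crosslinked reads of U2AF1 or U2AF2 that were counted on these genes were few and unevenly placed. The eCLIP libraries held 306711 to 1148212 gene counts, and technical runs were added up within each biological replicate. IL1B had 61.7 and 209 CPM in the 2 biological replicates of U2AF1 eCLIP, from 135 and 64 counts, and 24.4 and 36.1 CPM in those of U2AF2 eCLIP. CXCL3 had 16.0 and 29.3 CPM with U2AF1 and 10.5 and 19.5 CPM with U2AF2, and IL6 had 17.8 and 9.78 CPM with U2AF1 and 11.9 and 11.7 CPM with U2AF2. CXCL2 had 2.28 and 0 CPM with U2AF1 and 3.49 and 3.90 CPM with U2AF2, below CXCL3 in each replicate although its RNA level was higher. NFKBIA, TNFAIP3, BIRC3 and the subunit genes had 0 to 6.83 CPM in every replicate. CXCL8 had 0 counts in all 7 eCLIP libraries and all 17 freCLIP libraries, where 3 counts would be 1.37 and 9.78 CPM in the U2AF1 and 2.09 and 2.93 CPM in the U2AF2 replicates; its RNA averaged 11.2 CPM in induced WT cells. Set against RNA in induced WT cells, U2AF1 eCLIP CPM was 1.38 times the RNA level for IL6, 0.917 times for CXCL3, 0.891 times for IL1B and 0.863 times for BIRC3 (8 counts), against 0.0262 times for CXCL2 and 0.0439 times for NFKB1. With U2AF2 the ratio was 1.18 for IL6, 0.607 for CXCL3, 0.2 for IL1B and 0.626 for BIRC3 (3 counts), and the U2AF1 mean of IL1B rests largely on the replicate at 209 CPM. These ratios describe gene counts only. Crosslinked reads can come from introns, intron length differs between genes, and whether reads in introns were counted is not stated. In the eCLIP libraries 48.18% to 60.23% of reads fell in no annotated gene feature.

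**Figure D5:**
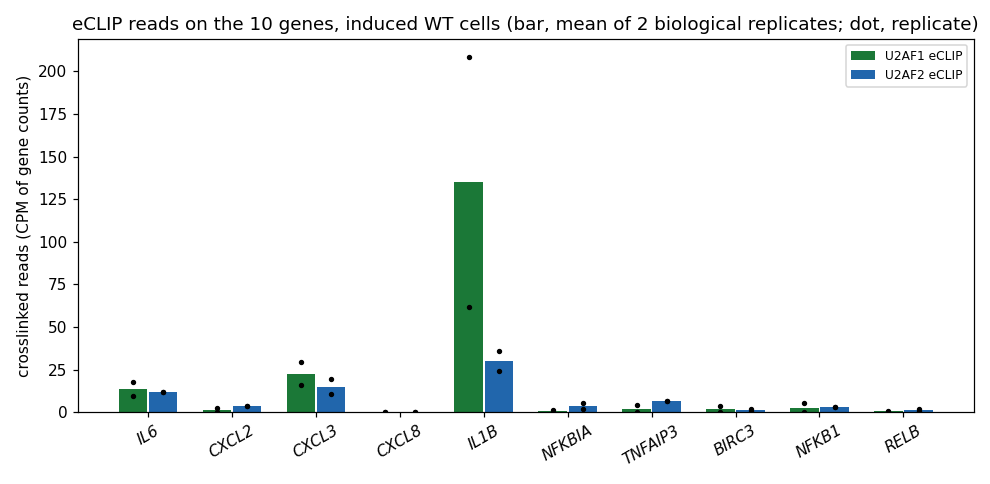
eCLIP reads (CPM of gene counts, axis from 0) on the 10 genes in induced WT cells for U2AF1 and U2AF2, with bars at the mean of 2 biological replicates and dots at each replicate. IL1B has the tallest bars, at 135 and 30.3 CPM, and its U2AF1 replicates stand at 61.7 and 209 CPM, while CXCL8 is at 0.

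In freCLIP the libraries held 38415 to 730996 gene counts, and CXCL3 and IL1B alone passed the filter on low counts. Without the filter 9 of the 10 genes had a value, and 0 were called in each of the 4 comparisons. In the light fraction IL1B had 60.8, 0 and 49.7 CPM in S34F, 0 and 0 CPM in Q157R, and 175, 28.8 and 43.1 CPM in WT libraries. With 0 counts over both Q157R libraries, and a floor of 3 counts over the group, IL1B was at least 3.12-fold lower in Q157R than in WT over summed counts. The bound holds for the sums only. In single Q157R libraries 3 counts were 56.6 and 19.9 CPM, and 56.6 CPM lay above the WT libraries at 28.8 and 43.1 CPM. EdgeR's test is of its own fitted log2 fold change, -7.22 ± 2.45 (edgeR adjusted p = 0.0559). The median of all 6833 rows tested was itself -1.19 on the log2 scale in that comparison. CXCL3 had 0, 0 and 11.0 CPM in the light fraction of S34F, 0 and 106 CPM in Q157R, and 65.7, 3.60 and 117 CPM in WT libraries, so both mutants overlapped WT. In the heavy fraction IL1B had 32.2, 86.9 and 102 CPM in S34F, 152 and 83.0 CPM in Q157R, and 42.1, 136, 98.7 and 40.2 CPM in WT libraries, which overlapped. Of the 2 genes tested 0 were called in the light fraction of S34F against WT (0.337% of all rows; 0 at an unadjusted p under 0.05) or of Q157R against WT (7.6% of all rows; 1, IL1B, at an unadjusted p under 0.05). In the heavy fraction 0 were called for S34F (0.132% of all rows) and for Q157R (0% of all rows), with 0 at an unadjusted p under 0.05; DESeq2 called IL1B in the light Q157R comparison, where it called 14.4% of all rows and IL1B was the one gene of the 10 it tested. CXCL2 showed how far 1 library can carry such counts: 51 of its 78 freCLIP counts came from a single light WT library.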

How the data were processed

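The count tables deposited by the authors hold whole-number read counts per gene, with no normalization, for RNA-seq, eCLIP and freCLIP; 34 of 43 samples were used and 9 transient-labelling samples were not used here. Per the submitters' processing notes, the tools were HTSeq, HISAT2, cutadapt, SAMtools, DESeq2, edgeR and STAR (2.5.3a, 2.7.0f), with build GRCh38.p10; the strand setting and the gene annotation are not given in the sources used here. Symbols and positions came from GENCODE release 29, which matched 58084 of 58347 entries. Rows naming no gene were left out; reads naming no gene were 43.9% to 56.4% of RNA-seq, 98.1% to 98.8% of eCLIP and 98.1% to 99.1% of freCLIP reads.

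Counts were scaled by TMM in edgeR 4.0.16 (R 4.3.3), filtered with filterByExpr (minimum count 10) and tested with the quasi-likelihood F test, with 1 mean for each of the 6 groups, over all 10 RNA-seq libraries or all 17 freCLIP libraries; eCLIP was described only. P-values were adjusted by Benjamini-Hochberg over all genes tested, with a threshold of 0.05. Floors are 3 counts and, like the counts, cover counting error only. Deviations from the group means of same-numbered RNA-seq libraries correlated in all 6 pairs of groups (r between 0.211 and 0.652). With 2 libraries a group, both numbers share 1 value. The replicate numbers, taken from the titles, were therefore treated as a pairing in the fit with the replicate block. The main fit had no replicate term, so its p-values leave this pairing out. No label says what a number marks. Alternatives were the replicate block, DESeq2 1.42.0 (adjusted values it left empty stayed empty), RLE size factors, no filter, only the compared groups, and leaving out each library. The scripts were tested on simulated counts. Genes named were the 10 members, U2AF1, CXCL1, up to 3 called genes of each of 9 pathway lists (with none called, the 2 most abundant), and the 3 genes most alike to IL6, CXCL8 and NFKBIA with a mean log2 CPM of at least 1; genes of the marker lists were named after their values were seen. The members and lists were chosen with earlier results of these data known.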

Additional observations from a re-analysis of the deposited data

Results flagged for a closer look

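Of 8 genes tested over the 4 heavy freCLIP libraries of WT cells, 3 had a library standing apart. Chance flags about 1 in 20 groups of continuous values, a rate that is no measure for counts near 0. CXCL3 had 5.24 CPM in 1 library and 31.3 to 36.3 CPM in the others (gap over range 0.839). NFKB1 and RELB each had 1.45 CPM in 1 library and 0 CPM in the others (gap over range 1 for both), which is a single read; any gene with reads in 1 library alone has this gap.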

How the results depend on the processing

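Uninduced S34F and Q157R were 1 library each, and with 2 libraries in the induced groups the count of called genes depended on the fit; the cause was not tested. In the main edgeR fit, without the block, 0 of 10 genes were called in each RNA comparison. The same held with each library left out in turn where its group kept another. The single uninduced S34F and Q157R libraries could not be left out. With the replicate block 5 were called for S34F against WT, 1 for S34F against Q157R and 2 for S34F induction. DESeq2 called 4 for S34F against WT and 2 for Q157R induction. Without the filter, 3 were called for S34F against WT, 1 for S34F induction, 2 for Q157R induction and 2 for the S34F response minus the WT response; with only the compared groups 1 was called for S34F induction. In the light freCLIP fraction of Q157R against WT, DESeq2 called 1 gene, and leaving out single libraries gave 0 to 1, the call of IL1B being made without light WT replicate 3 or 4. Over all genes, S34F against WT gave 356 calls without the block, 4779 with it, 1569 in DESeq2, 2410 without the filter and 0 with only the compared groups. S34F against Q157R gave 119, 4261, 1239, 2135 and 0 calls in the same order, and S34F induction 418, 4099, 1790, 2992 and 4357. In the comparisons with 0 calls without the block, the block gave 150 calls for the S34F response minus the WT response, 89 for WT induction and 56 for Q157R induction, and leaving out the filter gave 306, 130 and 569. Light freCLIP of Q157R against WT gave 519 calls, 333 with the block, 263 without the filter and 0 with only the compared groups.

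With the block the log2 difference turned to -0.14 for RELB in Q157R induction, to -0.14 for NFKBIA and -0.15 for RELB in the Q157R response minus the WT response, to 0.20 for TNFAIP3 and 0.31 for RELB in uninduced S34F against WT, and to 0.024 for NFKBIA in uninduced Q157R against WT. CXCL3 in light freCLIP of Q157R against WT was 0.50 with the block (freCLIP numbers did not pair: 6 of 34 correlations were over 0.1), 0.21 in DESeq2, 0.25 with RLE size factors and 0.023 without the filter.

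Leaving out 1 library gave these ranges where the sign turned. S34F against WT: CXCL8 -1.11 to 0.035, NFKBIA -0.053 to 0.29, TNFAIP3 -0.62 to 0.041, NFKB1 -0.0079 to 0.12 and RELB -1.12 to 0.43, with a median over the 10 genes of -1.06 to 0.04. Q157R against WT: CXCL8 -0.29 to 1.05, NFKBIA -0.29 to 0.075, TNFAIP3 -0.21 to 0.54 and RELB -1.42 to 0.74. S34F against Q157R: RELB -0.92 to 0.87. WT induction: NFKBIA -0.016 to 0.38, TNFAIP3 -0.25 to 0.47 and RELB -0.76 to 0.83. S34F induction: CXCL8 -0.89 to 0.12 and RELB -0.58 to 0.26, with a median of -0.70 to -0.13 (-0.67 with the block). Q157R induction: IL1B -0.50 to 0.089 and RELB -0.55 to 1.27. S34F response minus WT response: TNFAIP3 -0.57 to 0.13 and RELB -0.93 to 0.63. Q157R response minus WT response: CXCL3 -0.050 to 0.38, NFKBIA -0.15 to 0.24, BIRC3 -0.039 to 0.34 and RELB -0.78 to 1.38. Uninduced S34F against WT: NFKBIA -0.37 to 0.0091 and TNFAIP3 -0.36 to 0.25. Uninduced Q157R against WT: IL1B -0.10 to 0.14, NFKBIA -0.34 to 0.038 and NFKB1 -0.0055 to 0.083. In freCLIP IL1B ranged from -1.30 to 0.25 (light S34F) and -0.45 to 0.28 (heavy S34F), and CXCL3 from -6.79 to 0.84 (light Q157R). DESeq2 in heavy freCLIP of S34F, and the fit of only the compared groups in light freCLIP of S34F, gave no value for these genes.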
